A study of Rattus norvegicus with 16 samples.

Results

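Transthyretin (Ttr, ENSRNOG00000016275) and prolactin (Prl, ENSRNOG00000017374) were followed in hypothalamic RNA of young rats as markers of tissue that lies next to the hypothalamus. They are 2 of the 32883 gene IDs in the count files and were chosen by ID, without use of measured values. The names were supplied with the IDs. The rat gene table at hand lists both symbols as protein-coding genes but pairs 0 of the 32883 IDs with a symbol, so the names could not be checked. The samples were the tissue labelled Hypothalamus (MBH-PoA) of 16 female Wistar rats aged 21 days, 1 library per rat, with 4 libraries in each of 4 groups. F1 control and F1 EDC rats were exposed in utero, to vehicle or to an EDC mixture (endocrine disrupting chemicals), and F3 control and F3 EDC rats descended from vehicle or EDC lineages. Dams of the maternal line took vehicle or mixture with food, starting 2 weeks ahead of gestation and stopping when lactation ended. The sources used here do not give the mixture's composition or the rats' litters, so p-values measure the spread between these libraries, whatever its source. All 8 EDC samples carry titles beginning with Control, and the source descriptions and treatment fields, which name EDC, set the groups.

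Transthyretin carries thyroxine and, through retinol-binding protein, retinol. In the brain it is made mainly by the epithelium of the choroid plexus, the fold of tissue that secretes cerebrospinal fluid into the ventricles, and one such fold hangs in the roof of the third ventricle above the hypothalamus. Prolactin is the milk-promoting hormone of the lactotroph cells of the anterior pituitary, which hangs below the hypothalamus and is held in check by dopamine from hypothalamic neurons. A dissected hypothalamus can therefore carry shreds of either tissue. Gene counts per library ran from 5655354 to 35981898. The lanes of the F1 and the F3 libraries differed by number, so lane and generation cannot be told apart. Lanes held 4 samples each, and how the groups were spread over lanes is not given here. Other markers of choroid plexus, pituitary or hypothalamus could not be read, because no other ID is paired with a name here. The tissue label was therefore not checked against hypothalamic markers.

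The 2 markers behaved differently. Ttr was read in all 16 libraries at levels that ranged over 1052-fold, whereas Prl had 0 reads in every one. Ttr passed the filter on low counts and Prl did not, so only Ttr was tested.

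Prl was at 0 in the counted strand, in the unstranded column and in the opposite strand of each library. A count of 0 allows up to 3 counts, which corresponds to 0.0753 CPM (reads scaled to a common library size, with TMM factors for composition) in F1 EDC replicate 4, the deepest library, and to 0.535 CPM in F1 control replicate 4, the shallowest. Over the 298690819 gene counts of all libraries the limit was 0.00999 CPM. These limits cover counting error only. Reads that map to several places are not part of the gene columns, and 10183 IDs (31.0%) were at 0 in all 16 libraries. This defining product of lactotrophs was thus not detectable in any of the 4 groups at this depth, and no comparison of Prl between groups could be made.

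Ttr in F1 control replicates 1 to 4 was at 18.5, 1374, 1115 and 250.1 CPM. Replicates 2 and 3 were high and replicate 1 was 74.2-fold below the highest. In F1 EDC it was at 5.98, 3.87, 238 and 102 CPM, with replicates 3 and 4 well above replicates 1 and 2. In F3 control it was at 195, 50.9, 3.785 and 1.76 CPM, a range of 110.5-fold. In F3 EDC it was at 2.92, 7.08, 1854 and 10.7 CPM, so that replicate 3 alone was high, at 635-fold the lowest. It was the highest Ttr value of the 16 libraries, followed by F1 control replicates 2 and 3. Every group thus held both low and high libraries, and all 4 groups overlapped.

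**Figure D1:**
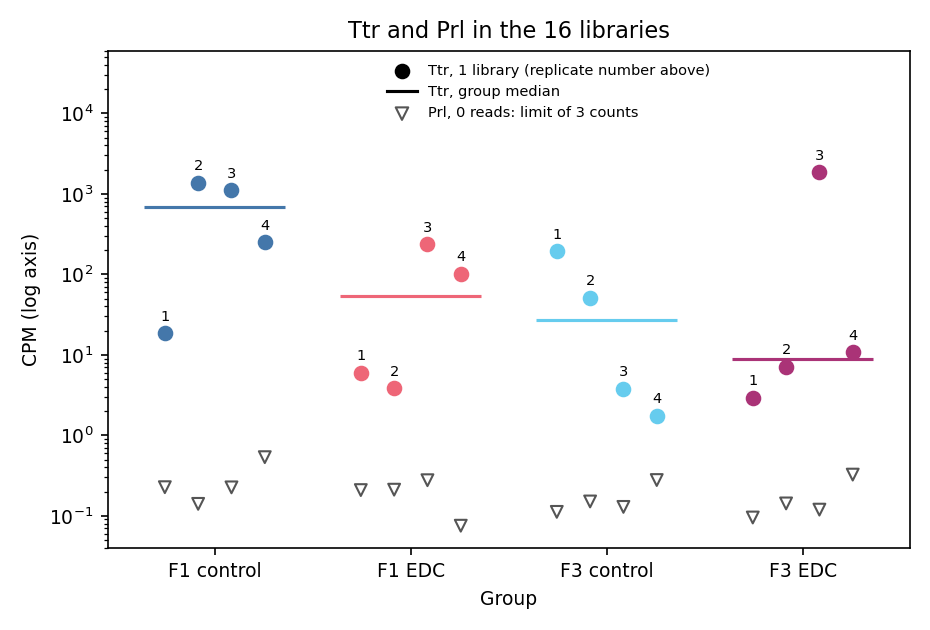
CPM (log axis) of Ttr in the 16 libraries by group, as filled circles with the replicate number above and a line at the group median; open triangles mark the limit that 0 Prl reads allow in the same library. Ttr runs from 1.76 CPM in F3 control replicate 4 to 1854 CPM in F3 EDC replicate 3, while every Prl limit lies between 0.0753 and 0.535 CPM.

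The reads behind these values numbered 19 in the lowest library (exact 95% Poisson interval 11.4 to 29.7) and 46623 in the highest. Ttr made up 0.000173% of the gene counts in the former and 0.191% in the latter. The counting intervals are narrow beside the differences between libraries of a group. Across the 16 libraries 2 reads lay on the opposite strand, both in F1 control replicate 4, and the unstranded column gave nearly the same numbers, for example 29023 reads against 29295 in F1 control replicate 2. In such bulk samples fewer cells of a type and less RNA per cell cannot be told apart.

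Few genes varied as much between rats of the same group. The pooled SD of Ttr within groups was 3.32 on the log2 CPM scale, the fourth largest (rank 4) of 15366 tested genes, where the median gene had 0.208. Among the 2530 other genes within 0.5 of its mean log2 CPM, the median SD was 0.141 and the largest 1.88. By group, its SD ranked 1 in the F3 EDC libraries, 4 in F1 EDC, 7 among F3 controls and 9 among F1 controls. Group membership accounted for 24.1% of the variance of its log2 CPM, against 62.9% for the median gene. With 4 groups of 4 libraries, part of such a share arises even in a gene without a group difference. The 24.1% is therefore not read as an effect of group.

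**Figure D2:**
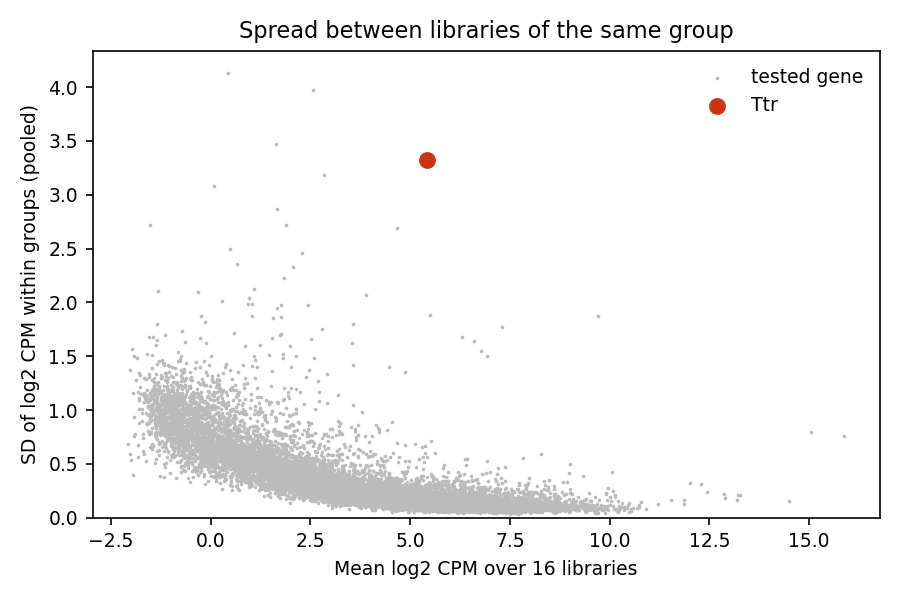
Pooled SD of log2 CPM within groups (y axis) against mean log2 CPM over the 16 libraries (x axis) for each tested gene (grey points), with Ttr in red. Ttr, at an SD of 3.32 and a mean of 5.42, lies above all other genes of like level.

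The first comparison asks whether exposed rats differed from controls in F1. Mean Ttr was 689.5 ± 657 CPM for the controls and 87.4 ± 110.2 CPM for the exposed rats (SD, n = 4 each), with medians of 683 and 53.9 CPM. With single libraries left out, the control mean ran from 453 CPM (without F1 control replicate 2) to 916 CPM (without F1 control replicate 1). The exposed mean ran from 36.7 CPM (without F1 EDC replicate 3) to 113 CPM (without F1 EDC replicate 2). The fitted log2 fold change was -2.99 (SE 2.14, 95% interval -7.65 to 1.665) and did not pass the threshold of 0.05 (edgeR quasi-likelihood adjusted p = 0.268). In the same comparison 52.4% of the tested genes passed. The groups overlapped through F1 control replicate 1, which lay below F1 EDC replicates 3 and 4. The other 3 F1 controls lay above all 4 F1 EDC libraries, the closest being 250.1 against 238 CPM.

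In F3, where the exposure was ancestral, Ttr averaged 62.8 ± 90.8 CPM in control and 469 ± 923 CPM in EDC (SD, n = 4 each), but the medians stood the other way, at 27.3 and 8.90 CPM. The fitted log2 fold change was 2.88 (SE 2.13, 95% interval -1.74 to 7.51; edgeR adjusted p = 0.551), in a comparison where 2.94% of tested genes passed. This value rested on F3 EDC replicate 3. With replicate 1 left out, F3 control averaged 18.9 CPM. Without F3 EDC replicate 3 the F3 EDC mean was 6.89 CPM and the log2 fold change was -3.33 (SE 2.01; edgeR adjusted p = 0.594), opposite in sign.

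The difference between the EDC effects in F3 and F1 was 5.87 on the log2 scale (SE 3.02, 95% interval -0.69 to 12.44) and did not pass in edgeR (adjusted p = 0.139, with 43.6% of genes passing). DESeq2 gave 5.89 with an adjusted p of 0.0373. Without F3 EDC replicate 3 the edgeR value was -0.34 (SE 2.42, adjusted p = 0.930). Of the 25 alternatives run for this difference DESeq2 alone passed, and their adjusted p ranged from 0.0373 to 0.930.

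Between generations, Ttr in F3 control was lower than in F1 control by a log2 fold change of -3.44 (SE 2.18, 95% interval -8.18 to 1.298), which did not pass (edgeR adjusted p = 0.279), where 27.5% of genes did. F3 EDC against F1 EDC gave 2.43 (SE 2.09, 95% interval -2.12 to 6.99; edgeR adjusted p = 0.355), where 53.5% of genes passed, and -3.78 without F3 EDC replicate 3 (SE 2.045; edgeR adjusted p = 0.151). The intervals of all 5 comparisons include 0 and reach several log2 units on at least 1 side, so these values do not show that Ttr was alike between groups.

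**Figure D3:**
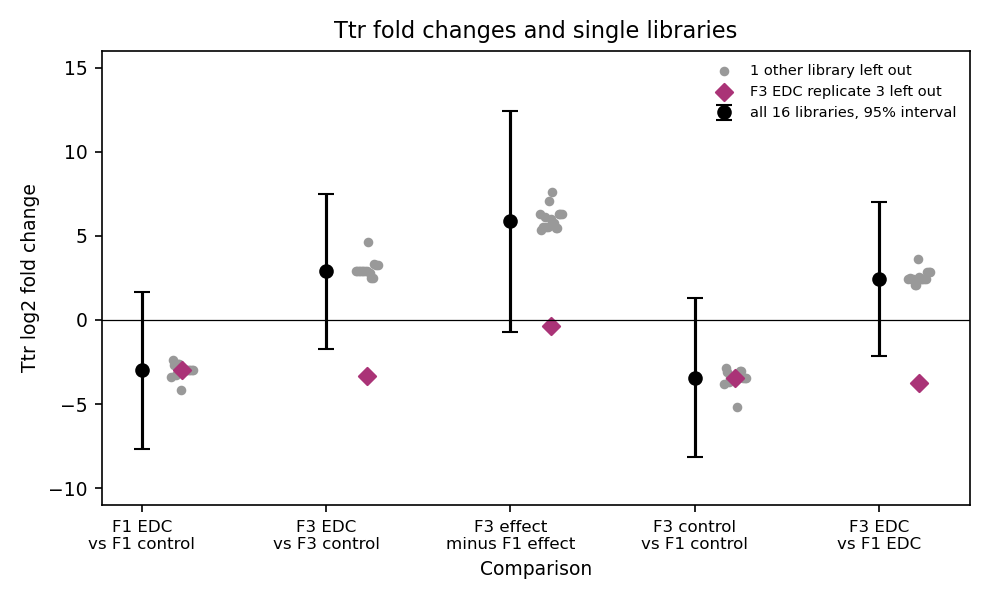
Log2 fold change of Ttr (y axis) in the 5 comparisons (x axis), with all 16 libraries and its 95% interval (black), and with each library left out in turn (grey), F3 EDC replicate 3 shown as a diamond. Leaving out that library moves F3 EDC against F3 control from 2.88 to -3.33, the difference between EDC effects from 5.87 to -0.34 and F3 EDC against F1 EDC from 2.43 to -3.78.

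No relation of Ttr with 2 technical measures of the libraries passed a test. Deviations of its log2 CPM from the group means had a Pearson r of -0.044 with the share of multimapping reads over the 16 libraries (two-sided permutation p = 0.896, adjusted 0.896) and a Spearman rho of 0.021 (permutation p = 0.948, adjusted 0.948). Within generations r was -0.357 in the 8 F1 and 0.115 in the 8 F3 libraries, and it was 0.136 without the 2 libraries farthest from the median. With log2 gene counts r was 0.266 (permutation p = 0.368, adjusted 0.735) and rho 0.276 (permutation p = 0.352, adjusted 0.704). It was 0.184 in F1, 0.356 in F3 and 0.269 without the 2 farthest libraries. These were the 2 relations computed. F3 EDC replicate 3, with the highest Ttr, had 15.75% multimapping reads, close to the 15.7% of F3 EDC replicate 1, where Ttr was at 2.92 CPM.

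A small set of genes moved with Ttr from library to library. With the log2 CPM of Ttr added to the group means, 21 of the 15365 other genes (0.137%) had a slope past the threshold (edgeR quasi-likelihood, adjusted p under 0.05). All 21 rose with Ttr and 0 fell. At an unadjusted p under 0.05 there were 215 genes that rose with Ttr and 122 that fell. With limma voom and sample quality weights 39 genes rose with it and 1 fell, and these 40 included the 21. The slopes of the 21 ran from 0.053 to 0.857 log2 units per log2 unit of Ttr, with a median of 0.536, so each changed by a smaller factor than Ttr itself. The 21 were mostly genes of low level, 16 of them under 10 CPM on average.

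ENSRNOG00000030877, named after its values were seen, had the highest mean CPM of the 21, a scale not corrected for gene length, and made up most of their summed level in every library but F1 control replicates 2 and 3 and F3 EDC replicate 3. It lay between 68.5 and 79.7 CPM in F1 EDC and between 120.4 and 236 CPM elsewhere, with a slope on Ttr of 0.053. The summed level of the other 20 genes was 20.2, 429, 329 and 79.0 CPM in F1 control replicates 1 to 4, and 24.8, 23.9, 61.5 and 50.2 CPM in F1 EDC. Among F3 controls it was 101, 33.05, 21.3 and 20.5 CPM, and among F3 EDC libraries 28.6, 29.9, 722.5 and 29.4 CPM. The 3 libraries highest in Ttr were also the 3 highest in this sum, which restates how the genes were chosen.

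The IDs whose deviations were most like those of Ttr were ENSRNOG00000039107 and ENSRNOG00000023340, with Pearson r of 0.961 and 0.926 over the 16 libraries (Spearman rho 0.950 and 0.935). ENSRNOG00000039107 was at 1.89, 50.8, 44.8 and 10.35 CPM in F1 control replicates 1 to 4 and at 0.0696, 0.141, 7.01 and 3.39 CPM in F1 EDC. Among F3 controls the values were 12.5, 4.22, 3.05 and 0.742 CPM, and among F3 EDC libraries 1.75, 2.23, 94.0 and 2.82 CPM. Its libraries stood in nearly the order of Ttr within each group, with F3 EDC replicate 3 again highest of all. ENSRNOG00000023340 ran from 0.605 to 28.0 CPM in F1 control and from 0.633 to 3.88 CPM in F1 EDC. In F3 control it ran from 0.927 to 7.17 CPM. In F3 EDC it was between 1.05 and 1.43 CPM in 3 libraries and at 59.5 CPM in replicate 3.

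The slopes on Ttr were 0.65 (SE 0.05; edgeR adjusted p = 2.32e-05) for ENSRNOG00000039107 and 0.57 (SE 0.06; edgeR adjusted p = 0.000341) for ENSRNOG00000023340. Both IDs were chosen for their likeness to Ttr in these same libraries, so these slopes restate the choice. Like Ttr, neither passed in F1 EDC against F1 control, with log2 fold changes of -3.41 and -2.49 (edgeR adjusted p = 0.0905 and 0.160). Neither passed in F3, with 2.24 and 2.29 (edgeR adjusted p = 0.483 and 0.433). The difference between the EDC effects was 5.65 for ENSRNOG00000039107, just past the threshold (SE 2.13; edgeR adjusted p = 0.0486). It was 4.78 for ENSRNOG00000023340, which did not pass (SE 1.94; edgeR adjusted p = 0.0647). In that comparison 43.6% of tested genes passed. ENSRNOG00000039107 was at 94.0 CPM in F3 EDC replicate 3 and between 1.75 and 2.82 CPM in the other F3 EDC libraries. For these 2 IDs the difference without that replicate is not given here.

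At the other end, ENSRNOG00000016576 and ENSRNOG00000009014 had the lowest r with Ttr, -0.824 and -0.795. Their ranges within groups were small beside that of Ttr. Between groups, ENSRNOG00000009014 was higher in F1 EDC than in F1 control (log2 fold change 1.59; edgeR adjusted p = 1.83e-05). In that comparison 52.4% of tested genes passed, and ENSRNOG00000016576 did not (0.037; edgeR adjusted p = 0.704). ENSRNOG00000016576 stayed between 72.5 and 98.4 CPM in all 16 libraries, lowest in F3 EDC replicate 3, with a slope of -0.02 (SE 0.01; edgeR adjusted p = 1). ENSRNOG00000009014 lay between 9.04 and 12.95 CPM in F1 EDC and between 1.51 and 4.64 CPM elsewhere, with a slope of -0.09 (SE 0.03; edgeR adjusted p = 1).

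**Figure D4:**
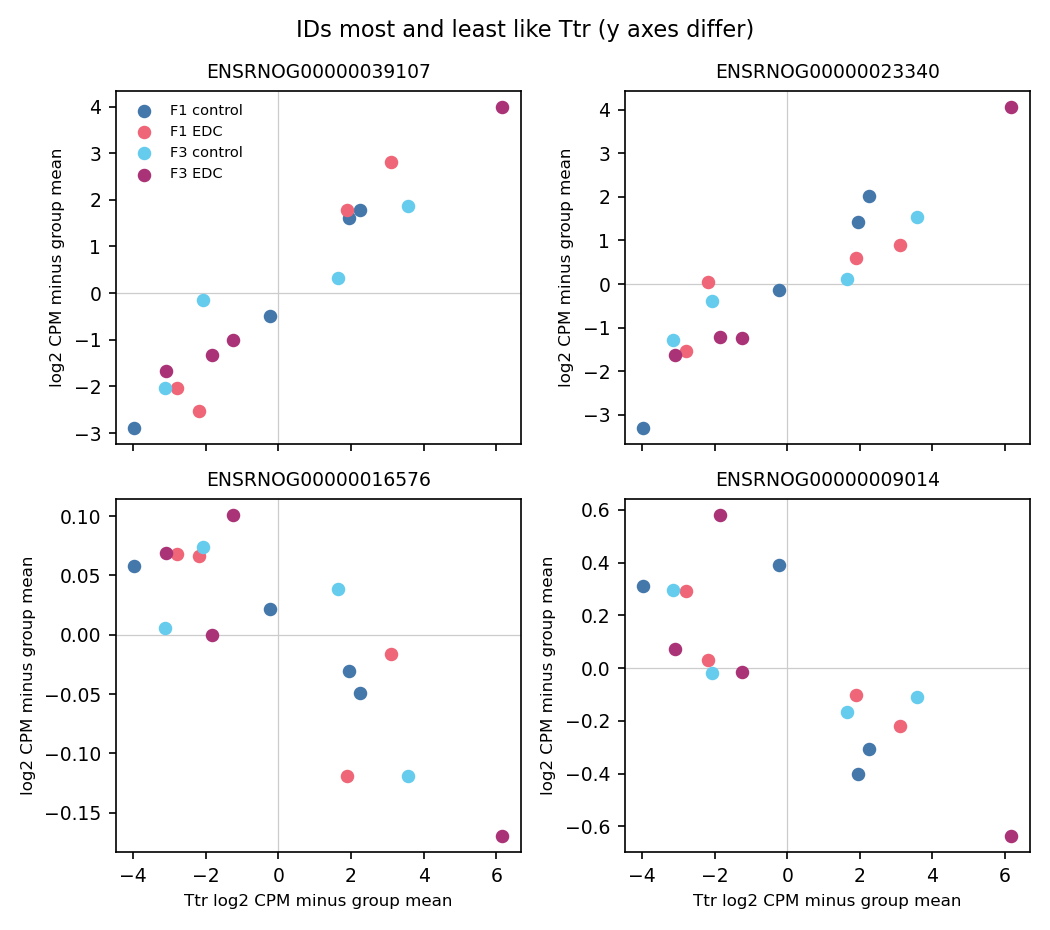
Deviation of log2 CPM from the group mean for the 2 IDs most like Ttr (top) and the 2 least like it (bottom), against the same deviation of Ttr, 1 point per library coloured by group; the y axes differ. The top IDs (r = 0.961 and 0.926) span several log2 units, whereas the bottom IDs (r = -0.824 and -0.795) span less than 2.

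The count of 21 depended on F3 EDC replicate 3. Without it 3 genes passed, all 3 among the 21. Of the 20 members of the list that could still be tested, 20 kept a positive slope with an unadjusted p under 0.05, where 1.89% of all tested genes had both, and their median slope was 0.44. The other libraries had also been used to choose them.

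The generations share no library, so genes chosen in F3 could be looked at in F1. For the slopes, only the filter on low counts had used all 16 libraries. In the 8 F3 libraries alone, 14 genes (0.0911%) passed, and 12 of them were among the 21. In the 8 F1 libraries all 14 had a positive slope, as did 47.4% of all tested genes. An unadjusted p under 0.05 with a positive slope was reached in F1 by 11 of the 14, against 2.54% of all tested genes. The filter limits this reading. Genes of low level can pass it through libraries high in Ttr, F1 libraries among them, which favours a positive slope in F1. Among the 14, ENSRNOG00000062260 and ENSRNOG00000030938 averaged -1.98 and -1.35 log2 CPM over the 16 libraries. The shares over all genes are not matched for level, so the 11 of 14 is not an independent test. The r of the 14 with Ttr in F1 had a median of 0.83, between 0.0848 and 0.986, where the median over all genes was -0.032. These r used log2 CPM scaled over all 16 libraries. In the reverse order, the F1 libraries alone gave 1 gene (0.00651%), ENSRNOG00000039107, which was also among the 14. That gene was thus 100% of the F1 list and 7.14% of the F3 list.

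**Figure D5:**
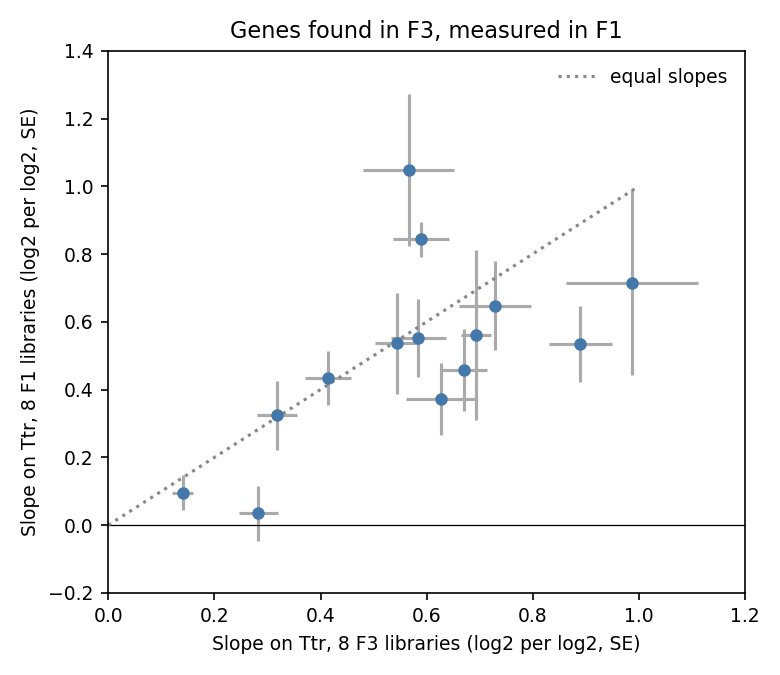
Slope on Ttr in the 8 F1 libraries (y axis) against the slope in the 8 F3 libraries (x axis), with SE, for the 14 genes that passed in F3 alone; the dotted line marks equal slopes. All 14 lie above 0 in F1, from 0.035 to 1.05. F1 libraries entered their choice only through the filter on low counts, which can favour a positive slope in F1 for genes of low level.

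The 21 genes were also looked up in the EDC comparisons. They were chosen for moving with Ttr within groups, which widens their spread. A low share called can therefore follow from the choice alone, and nothing about EDC is read from it. In F1 EDC against F1 control edgeR called 1 of the 21, where it called 52.4% of all tested genes. That gene was ENSRNOG00000030877, which fell by 1.45 on the log2 scale. Limma voom also called 1 of the 21 (49.9% of all genes), whereas DESeq2 called 11 (53.9% of all genes), a share near its background. At an unadjusted p under 0.05 edgeR had 7 of the 21 and 57.0% of all genes, so the count in F1 depended on the tool. In F3 EDC against F3 control edgeR and limma voom called 0 of the 21, where they called 2.94% and 9.90% of all genes. DESeq2 gave an adjusted p for 7 of the 21 there and called 0 of these, against 7.53% of the genes with one. At an unadjusted p under 0.05 edgeR had 3 of the 21 in F3 and 16.6% of all genes, close to the background. Their median log2 fold change was -2.53 in F1 and 2.15 in F3, beside -2.99 and 2.88 for Ttr. The median over all tested genes was near 0 in both generations (-0.0042 and -0.027). Because the 21 were chosen for following Ttr in these same libraries, their values are not separate from those of Ttr. The F3 value includes F3 EDC replicate 3, the library with the highest Ttr. In edgeR with all 16 libraries, the difference between the EDC effects passed for 13 of the 21, where it passed for 43.6% of all tested genes. For Ttr itself this difference went from 5.87 to -0.34 without F3 EDC replicate 3. Counts for the 21 without that library or with the other tools are not given here, so no excess is read from the 13.

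The calls over all genes were also counted with Ttr in the model. In F1, 7494 genes passed with the log2 CPM of Ttr as a covariate, against 8057 without it, and 7365 were called both ways. In F3, 365 passed against 452, and 363 were called both ways (80.3% of the 452). The difference between the EDC effects kept 6016 of 6699 genes, F3 control against F1 control 3330 of 4233 and F3 EDC against F1 EDC 8093 of 8216. The covariate also takes up 1 residual degree of freedom. Leaving out F3 EDC replicate 3, the library with the highest Ttr, lowered the F3 count to 34. With any other single library left out the count ran from 87 to 553. The 87 was without F3 control replicate 2, where Ttr was at 50.9 CPM, and the 553 without F3 control replicate 4. Whether the drop to 34 goes with Ttr was not tested.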

How the data were processed

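Total RNA from 16 libraries was read with single reads of 100 cycles on a HiSeq instrument, per the labels' protocols. Trimmomatic 0.33, the aligner TopHat2 2.1 and build rn6 are listed in the submitters' processing notes. The authors deposited raw read counts per Ensembl gene in the layout STAR writes, after 4 summary lines that stayed out of library sizes. The sources used here give no STAR version. Counts of column 4 were used, which held at least 52.5 times the counts of the other strand. Counts were filtered (filterByExpr, count minimum 10), scaled by TMM and tested in R 4.3.3 by the quasi-likelihood method of edgeR 4.0.16 (robust, 4 group means over all 16 libraries), with Benjamini-Hochberg adjustment over 15366 genes, two-sided. Each SE is the log2 fold change over the root of its F, and intervals from the t distribution with 12.2 degrees of freedom. Log2 CPM used a prior count of 2. Relations were tested with 100000 permutations within groups, those with Prl not being computable. Alternatives used DESeq2 1.42.0, voom of limma 3.58.1, scaling by RLE or upper quartiles, other filters, the unstranded column, single generations, the replicate number, the multimapping share and single libraries. The procedure was tested on simulated data. IDs named besides the members were the 2 with the highest and the 2 with the lowest within-group r with Ttr among genes whose log2 CPM averaged 0 or more. Marker lists by symbol could not be used, and sequences were not used here. The members and lists were chosen with earlier results of these data known. The fits of single generations for the slopes on Ttr, and the counts of calls kept with Ttr in the model, were added after seeing the data.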

Additional observations from a re-analysis of the deposited data

Results flagged for a closer look

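Each of 28 sets of 4 libraries (Ttr, 4 named IDs, multimapping share and gene counts, in 4 groups) was checked for a library whose gap to its nearest neighbour took more of the range than Dixon's 95% critical value. Chance flags about 5% of such sets, and 4 were found. Ttr in F3 EDC replicate 3, at 1854 CPM, had a gap of 0.996 of the range; on the log2 scale the gap was 0.801 and did not pass. ENSRNOG00000039107 and ENSRNOG00000023340 stood apart in the same library, at 94.0 and 59.5 CPM (gaps of 0.988 and 0.994), and they were chosen for their likeness to Ttr. Gene counts stood apart in F1 EDC replicate 4, the deepest library, at 35981898 (gap of 0.848), where Ttr was within the range of its group.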

How the results depend on the processing

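Over 129 fits of the 5 Ttr comparisons under the alternatives, 1 passed the threshold, the difference between EDC effects in DESeq2 (5.89, adjusted p = 0.0373), and 6 changed sign. With single libraries left out, log2 fold changes ran from -3.33 to 4.60 in F3 EDC against F3 control, from -0.34 to 7.59 for the difference between EDC effects and from -3.78 to 3.65 in F3 EDC against F1 EDC, each low end being without F3 EDC replicate 3. F1 EDC against F1 control (-4.16 to -2.41) and F3 control against F1 control (-5.16 to -2.85) kept their sign throughout. Limma voom gave -0.54 in F3 EDC against F3 control and -0.62 in F3 EDC against F1 EDC; it weights libraries, and the cause was not tested. Genes moving with Ttr numbered 3 to 26 with single libraries left out, 12 without the libraries over 40% multimapping, 40 with limma voom and 1 in F1 alone. Genes called in F3 numbered 34 to 553 with single libraries left out (34 without F3 EDC replicate 3, 87 and 199 without F3 control replicates 2 and 1, and 240, 258 and 270 without F3 EDC replicates 1, 2 and 4), 775 with DESeq2 and 1522 with limma voom. Without the libraries over 40% multimapping edgeR called 0 (2240 at an unadjusted p under 0.05); that fit holds fewer libraries and no F1 EDC library, so it gives no comparison with F1 EDC. The r of Ttr with the multimapping share ran from -0.218 to 0.177 with single libraries left out, reversing without F1 control replicate 2, F3 EDC replicate 3 or F3 EDC replicate 4. Replicate numbers showed no sign of pairing. Same-numbered libraries had correlations of deviations from -0.108 to 0.088, and 2 of 8 control libraries correlated best with their own number. This check cannot exclude shared litters or another pairing. With the replicate block, Ttr in F3 EDC against F3 control was at -1.005 (edgeR adjusted p = 0.927) and 9 genes moved with Ttr, while counts of calls changed by less than 1.5 times (387 genes in F3). Prl stayed at 0 reads in the unstranded counts, and no other alternative gave a value for it. The depth sets the limit printed for Prl.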
